A study of Mus musculus with 6 samples.

Results

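A set of 10 genes that store, take up, release and sense iron were read out in skeletal muscle of mice that carry the FLExDUX4 transgene and of their wild-type littermates: Fth1, Ftl1, Ncoa4, Mb, Tfrc, Slc11a2, Slc40a1, Hfe2, Aco1 and Ireb2. They were chosen by name, and all 10 were found among the 52550 mouse genes of the deposited table. The FLExDUX4 mice were hemizygous for a human DUX4 transgene that sits inverted between lox sites at the Rosa26 locus. They carried no Cre driver, so the transgene was expressed only by leakage, at a very low level. DUX4 is the transcription factor whose expression in muscle causes facioscapulohumeral muscular dystrophy. The labels give quadriceps of males aged 13 weeks, 3 FLExDUX4 and 3 WT (wild-type), whereas the methods of the study give triceps and a younger age. The genotypes share sex, muscle and age as labelled, and the labels name no treatment.

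Iron in a muscle fiber enters mainly as transferrin bound to its receptor, is stored inside the ferritin shell, and leaves through the exporter ferroportin. A large part of it sits in the heme of myoglobin, which holds oxygen, and in the iron-sulfur clusters of mitochondrial enzymes. When cytosolic iron is low, 2 iron regulatory proteins bind hairpins called iron-responsive elements in the messenger RNA. Binding near the 5′ end blocks translation, as in the ferritin messages, while binding in the 3′ untranslated region protects the message from decay, as in that of the transferrin receptor. The first kind of control leaves little trace in messenger RNA counts, whereas the second changes them directly.

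The hairpin letters are shown because they mark where such an element could lie in the members' messages. The search looked in annotated untranslated regions for a C, then 5 bases, the loop CAGTGN, and 5 bases able to pair with the first 5 (G with T allowed), on the sense strand only. These letters were found in the 5′ region of 31 and the 3′ region of 129 of 21901 protein-coding genes (0.142% and 0.589%; GENCODE M21, GRCm38). Among the 10 members they were found in 4. The loop is in capitals, and each line gives 27 bases of the transcript, 5′ to 3′, written as DNA.
Fth1, 5′ region, chr19:9982733-9982759, plus strand: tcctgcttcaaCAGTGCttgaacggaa
Ftl1, 5′ region, chr7:45459780-45459806, minus strand: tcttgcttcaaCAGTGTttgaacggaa
Slc40a1, 5′ region, chr1:45925466-45925492, minus strand: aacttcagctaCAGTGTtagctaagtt
Tfrc, 3′ region, chr16:32631220-32631246, plus strand: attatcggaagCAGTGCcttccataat
Tfrc, 3′ region, chr16:32631599-32631625, plus strand: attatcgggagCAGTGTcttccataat
Tfrc, 3′ region, chr16:32631664-32631690, plus strand: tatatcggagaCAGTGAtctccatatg
Tfrc, 3′ region, chr16:32631711-32631737, plus strand: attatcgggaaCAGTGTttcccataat
Tfrc thus held 4 matches within its 3′ region, and each of the other 3 genes held 1 in its 5′ region. The letters were in 4 of 5 annotated coding transcripts of Fth1, 1 of 2 of Ftl1, 1 of 4 of Slc40a1 and 1 of 3 of Tfrc. The absence of a match in the other 6 members says only that these letters are not in their annotated regions.

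The RNA was sequenced with QuantSeq, which primes on the poly(A) tail and yields roughly a single read for each message, long or short. Counts per 1000000 scaled counts (CPM) are therefore already a level per transcript where reads match a single gene. Such levels can be set side by side between genes, but that of Ftl1 is uncertain, because much of its 3′ end is shared with other genes. The deposited table gives 1 raw count per gene and genotype, a total over libraries, and this total is the only value per genotype used here. There is thus no error between mice, no test was run, and 1 mouse could decide a value. All ranges given are 95% intervals that cover counting error only. Depth was 13110125 gene counts in the FLExDUX4 total and 18367364 in the wild-type total, and spike-in RNA took 1.65% and 1.40% of all counts. Ratios are FLExDUX4 over wild-type on the log2 scale after TMM scaling, which sets the typical gene near 0. Scaled to the spike-ins instead, every ratio falls by 0.28, and the median of all genes compared is -0.28. That shift was taken as exact, so intervals with spike-in scaling hold no error of the spike-in amounts. Skeletal muscle markers were abundant in both totals, with summed levels of 124448 and 124732 CPM over 8 genes, Acta1, Ckm and Myh4 among them. Of the limb position genes, Pitx1 had 0 and 1 counts, Tbx4 10 and 10, and Tbx5 14 and 34 in FLExDUX4 and wild-type.

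The levels of the members spanned more than 3 orders of magnitude. In the wild-type total the order was Mb, Fth1, Hfe2, Tfrc, Slc40a1, Ireb2, Slc11a2, Aco1, Ftl1 and Ncoa4. The counting intervals of neighbours in that order did not overlap, from the 1857 CPM of Mb down to the 0.539 CPM of Ncoa4. The place of Ftl1 is uncertain in both totals, because much of its 3′ end is shared with other genes. Counting intervals do not cover that uncertainty, so its order relative to Aco1 and other neighbours is not settled by them. In the FLExDUX4 total the order was the same except that Ftl1 stood above Aco1, where their intervals, 6.20 to 9.29 CPM and 4.21 to 6.82 CPM, overlapped. The intervals of Ireb2 and Slc11a2 overlapped there too, at 16.7 to 21.5 CPM and 12.9 to 17.1 CPM. Mb and Fth1 alone took 0.188% and 0.145% of all wild-type gene counts, and ranked 37 and 41 among the 13396 genes compared.

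**Figure D1:**
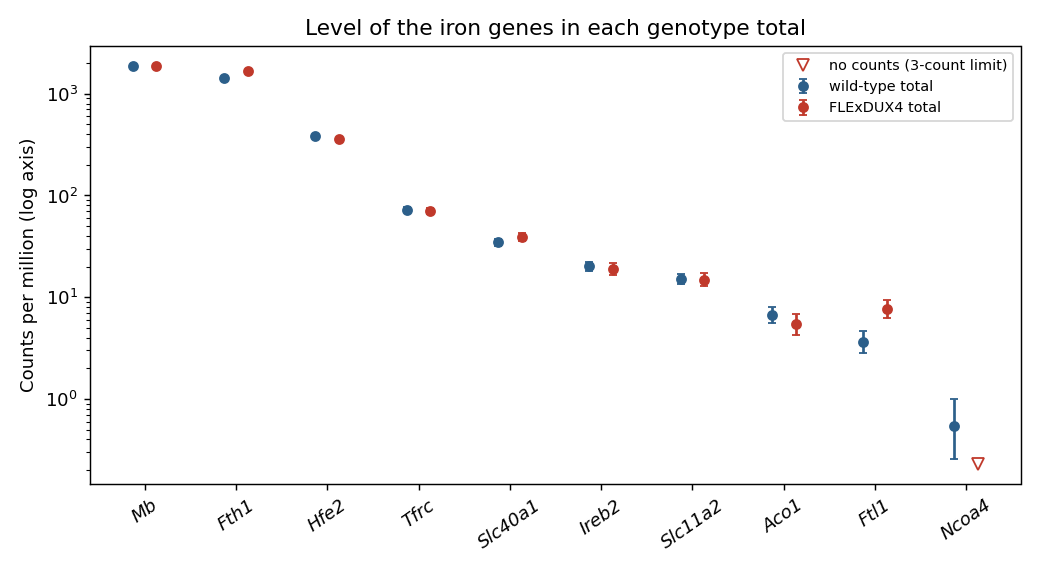
CPM on a log axis for the 10 iron genes in the wild-type total (blue) and the FLExDUX4 total (red), ordered by the wild-type level; bars are 95% counting intervals and the open triangle marks the 3-count limit of a total with no counts. The paired points lie close together for most genes, and Ftl1 differs most among the 9 genes compared, at 3.66 CPM in wild-type and 7.63 CPM in FLExDUX4.

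Of the 10 members, 9 passed the filter on low counts and could be compared, and 7 of them had a ratio within 0.25 of 0, as did 46.3% of all genes compared. The median ratio of the 9 was -0.03, beside -0.001 for all 13396 genes compared. Of these 9, Ftl1 was the only one at 1.5-fold or more, whereas 26.8% of all genes compared were past that fold in either direction, mostly genes with under 500 counts. All 9 passed the filter in both totals, while 847 of the 13396 genes passed through wild-type alone and 556 through FLExDUX4 alone. A group of 6 members had 500 or more counts over both totals, and none of them was past 1.5-fold, as were 2.62% of the 4577 genes with that many counts. All 6 lay within 0.25 of 0, and so did 75% of those 4577 genes. The counting interval excluded 0 for 3 of the 9 members and for 41.1% of all genes compared, above 0 for 2 members (20.5%) and below 0 for 1 (20.6%). Among members with 500 or more counts it did so for 2 of 6, Fth1 and Hfe2, beside 46.1% of genes with that many counts. With spike-in scaling the interval lay above 0 for 1 of the 9 members, Ftl1, and below 0 for 7, all others but Slc40a1, beside 7.59% and 47.1% of all genes compared.

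**Figure D2:**
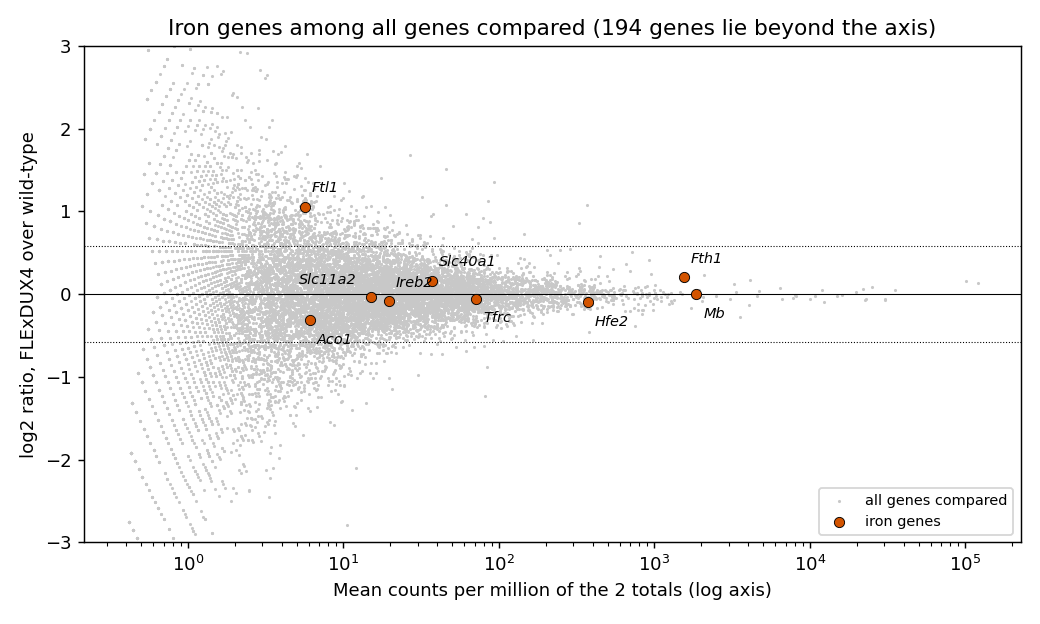
Log2 ratio of FLExDUX4 over wild-type against the mean CPM of the 2 totals (log axis) for all 13396 genes compared (grey), with the 9 iron genes in orange and dotted lines at 1.5-fold. Genes with few counts fan out widely, Ftl1 lies in that range at a ratio of 1.05, and Fth1 stands above the narrow band of abundant genes at 0.21; 194 genes lie beyond the axis.

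Ferritin stores iron in a shell of heavy and light subunits, encoded by Fth1 and Ftl1. Fth1 (ENSMUSG00000024661, chromosome 19, deposited start 9982703), whose product oxidizes iron for storage, had 21480 counts in FLExDUX4 and 26639 in wild-type, or 1656 and 1435 CPM. The FLExDUX4 total was therefore higher by a log2 ratio of 0.21 (interval 0.18 to 0.23), a fold of 1.15, but lower by the spike-in scaling, at -0.07 (interval -0.10 to -0.04). Among the 236 genes with 10000 or more counts over both totals, of which the central range between quartiles was -0.06 to 0.05, Fth1 had the ratio at percentile 93.2, with 15 genes higher. Red blood cell genes were also higher. All 5 of the compared genes on that list were higher, with ratios of 0.25 to 0.45 and intervals above 0, as for 20.5% of all genes compared, and the summed level of the 6 measured genes was 1279 CPM in FLExDUX4 and 1020 CPM in wild-type. With spike-in scaling their ratios ran from -0.02 to 0.17 with a median of 0.05, and only that of Hbb-bs had an interval above 0. The membrane marker Slc4a1 had 0 counts in FLExDUX4 and 6 in wild-type. The part of blood in the Fth1 ratio was not tested.

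Ftl1 (ENSMUSG00000050708, chromosome 7, 45457944 to 45459884) had 99 counts in FLExDUX4 and 68 in wild-type, or 7.63 and 3.66 CPM. The ratio was 1.05 (interval 0.60 to 1.53), a fold of 2.08 and 0.78 with spike-in scaling, both with intervals above 0. Ftl1 counts were lower than those of Fth1 by more than 2 orders of magnitude, and they are uncertain for the following reason. Of the last 500 bases of its longest coding transcript, 68.1% of the 75-base stretches also occur unchanged in transcripts of 6 other annotated genes, among them the pseudogenes Ftl1-ps1, Ftl1-ps2 and Ftl2-ps. For Fth1 this share was 7.7%, all of it shared with the predicted gene Gm6977, and for the other 8 members it was 0. How reads that match several places were counted is not given in the sources used here. Altogether 19 other ferritin rows and copies held 9 counts in FLExDUX4 and 22 in wild-type, and Gm6977 was the single one above 3 counts, with 8 and 20. Both ferritin genes are on a pathway list that the study drew from these samples, so their direction is not independent evidence.

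Ncoa4 (ENSMUSG00000056234, chromosome 14, 32159865 to 32179855) encodes the cargo receptor that delivers ferritin to the lysosome so that its iron is set free. It had 0 counts in FLExDUX4 and 10 in wild-type, too few to be kept among the genes compared. Against the 3 counts that a total of 0 allows, the FLExDUX4 level was at least 2.33-fold lower (2.82-fold with spike-in scaling), taking the 10 wild-type counts as exact. With their counting error included, the 95% interval of the log2 ratio reaches up to -0.65. None of the 75-base stretches at its 3′ end occurs in another annotated gene. With 10 counts, a single wild-type mouse could have supplied them all.

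Myoglobin, the product of Mb (ENSMUSG00000018893, chromosome 15, deposited start 77015489), is the oxygen-holding heme protein of oxidative fibers. It had 24079 counts in FLExDUX4 and 34467 in wild-type, at 1856 and 1857 CPM. The ratio was -0.001 (interval -0.02 to 0.02), and -0.28 with spike-in scaling, the same as the median of all genes. An antisense gene, Gm49540, overlaps the 3′ end of Mb on the opposite strand, and whether the counting used strand is not given in the sources used here. Genes of slow and oxidative fibers lay slightly below 0 in the median, at -0.07 over 8 genes, with summed levels of 2020 CPM in FLExDUX4 and 2119 CPM in wild-type. Of the 8, 2 were above 0, and 5 had an interval below 0 (20.6% of all genes compared). With spike-in scaling their median was -0.35, and none was above 0.

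Uptake was represented by the transferrin receptor and by a metal transporter. Tfrc (ENSMUSG00000022797, chromosome 16, 32608920 to 32632794), with the 4 letter matches in its 3′ region shown above, had 908 counts in FLExDUX4 and 1348 in wild-type, or 70.0 and 72.6 CPM. The ratio was -0.05 (interval -0.18 to 0.07), which holds 0. Slc11a2 (ENSMUSG00000023030, chromosome 15, 100387898 to 100425072), the divalent metal transporter that moves iron out of the endosome, had 193 counts in FLExDUX4 and 282 in wild-type, which is 14.9 and 15.2 CPM. Its ratio of -0.03 (interval -0.30 to 0.24) also holds 0, and the interval leaves room for a change of up to about that size in either direction. With spike-in scaling the ratios of these genes were -0.33 and -0.31, close to the shift of all genes.

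Export rests on ferroportin, the product of Slc40a1 (ENSMUSG00000025993, chromosome 1, 45908068 to 45926523), which is also highly expressed in macrophages that recycle iron. It had 505 counts in FLExDUX4 and 646 in wild-type, or 38.9 and 34.8 CPM. The ratio was 0.16 (interval -0.01 to 0.33), and -0.11 (interval -0.29 to 0.06) with spike-in scaling. The direction thus depended on the scaling, and both intervals hold 0. Of 10 macrophage and leukocyte markers, 5 were above and 5 below 0 with a median of -0.004, and 3 above and 7 below 0 with a median of -0.28 with spike-in scaling. The summed level of these markers was 107 CPM in FLExDUX4 and 104 CPM in wild-type, and none was at 0. The scavenger receptor gene Cd163, on that list, stood at 165 and 125 counts, for a ratio of 0.92 (interval 0.57 to 1.26). On the same list C1qb, a complement gene, was at -0.62 (interval -1.12 to -0.15), and Adgre1 was lowest at -0.66 (interval -1.44 to 0.04). The integrin gene Itgam was highest at 1.002 (interval 0.06 to 2.002) from 24 and 17 counts, an interval that holds 0 with spike-in scaling. With TMM scaling the intervals of the other 7 markers of the 10 besides Cd163, C1qb and Itgam hold 0, while 41.1% of all genes compared exclude it. With spike-in scaling those of Cd68, Adgre1, Mrc1 and Lyz2 lie below 0, as does that of C1qb (47.1% of all genes compared). The part of macrophages in the Slc40a1 ratio was not tested, and in bulk RNA fewer cells of a type and less RNA per cell cannot be told apart.

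Hfe2 (ENSMUSG00000038403, chromosome 3, 96525172 to 96529210) encodes hemojuvelin, a co-receptor for bone morphogenetic proteins that drives hepcidin expression in liver and is also abundant in skeletal muscle. It had 4665 counts in FLExDUX4 and 7158 in wild-type, or 359.5 and 385.7 CPM. The ratio was -0.10 (interval -0.15 to -0.05), a fold of 0.93, and -0.38 with spike-in scaling. Among the 9 members compared, Hfe2 was the one whose counting interval lay below 0 with TMM scaling. Among the 236 genes with 10000 or more counts, 35 had a lower ratio and 200 a higher one, so that Hfe2 lay below the central range of that band.

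The sensors are Aco1, which encodes cytosolic aconitase and, without its iron-sulfur cluster, iron regulatory protein 1, and Ireb2, which encodes iron regulatory protein 2. Aco1 (ENSMUSG00000028405, chromosome 4, 40143081 to 40198338) had 70 counts in FLExDUX4 and 125 in wild-type, or 5.40 and 6.74 CPM. The ratio was -0.32 (interval -0.76 to 0.11), and -0.59 (interval -1.04 to -0.16) with spike-in scaling. Ireb2 (ENSMUSG00000032293, chromosome 9, 54863789 to 54912530) had 246 counts in FLExDUX4 and 374 in wild-type, at 19.0 and 20.2 CPM. This gave a ratio of -0.09 (interval -0.33 to 0.15), and -0.36 (interval -0.60 to -0.13) with spike-in scaling. The ratio of Ireb2 to Aco1, 3.51 in FLExDUX4 and 2.99 in wild-type, differed by 0.23 (log2, interval -0.25 to 0.71).

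**Figure D3:**
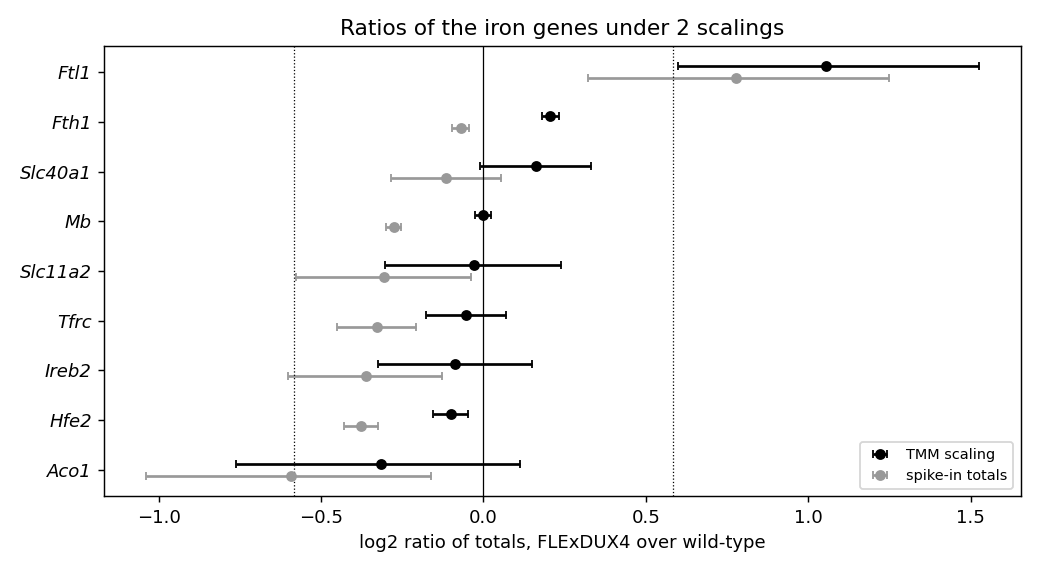
Log2 ratio of FLExDUX4 over wild-type for the 9 iron genes compared, with 95% counting intervals, after TMM scaling (black) and after scaling to the spike-in totals (grey); dotted lines mark 1.5-fold. Ftl1 lies above 0 under both scalings, whereas Fth1 and Slc40a1 lie above 0 under TMM and below 0 with the spike-ins, at -0.07 and -0.11.

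Ratios between members within a genotype do not depend on any scaling. Fth1 had 23.7 counts for each count of Tfrc in FLExDUX4 and 19.8 in wild-type, a log2 difference of 0.26 (interval 0.14 to 0.38). Relative to Mb, Fth1 was 0.892 in FLExDUX4 and 0.773 in wild-type, a difference of 0.21 (interval 0.17 to 0.24). The same comparison of Fth1 gave 0.31 (interval 0.25 to 0.37) against Hfe2, 0.29 (interval 0.06 to 0.53) against Ireb2 and 0.53 (interval 0.10 to 0.95) against Aco1. Against Slc40a1 it gave 0.04 (interval -0.13 to 0.21) and against Slc11a2 0.24 (interval -0.03 to 0.50), both holding 0. Ftl1 went the other way, with 217 counts of Fth1 for each of its own in FLExDUX4 and 391.8 in wild-type. The difference was -0.85 (interval -1.30 to -0.41), and it carries the uncertainty of the Ftl1 counts given above. These differences all use the same Fth1 counts and are not independent, and whether the mice of a genotype share them cannot be told from totals. Pairs without Fth1 differed too, Tfrc to Slc40a1 by -0.21 (interval -0.42 to -0.008) and Mb to Hfe2 by 0.10 (interval 0.04 to 0.16). Ftl1 to Aco1 differed by 1.38 (interval 0.76 to 1.99), with the same uncertainty of Ftl1, while the interval of Ireb2 to Aco1 held 0. The 3 members with the hairpin letters in their 5′ region, Fth1, Ftl1 and Slc40a1, were also the 3 with a ratio above 0 under TMM. This grouping was seen after the values, and only Ftl1 was above 0 with spike-in scaling.

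Beyond the members, 93 genes of iron transport, systemic control, storage chaperones, heme and iron-sulfur clusters were listed, of which 91 were measured and 77 compared. Their median ratio was -0.03. Of the 77, 6 were 1.5-fold or more higher and 5 lower in FLExDUX4, whereas 13.2% of all genes compared were higher and 13.5% lower by that fold. With spike-in scaling, 2 were higher and 16 lower, beside 7.82% and 23.7% of all genes compared.

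Of 12 compared iron transport genes, 2 were past 1.5-fold higher and 2 lower (13.2% and 13.5% of all genes compared), with a median of -0.16. With spike-in scaling none was higher and 3 were lower (7.82% and 23.7% of all genes compared), and the median was -0.43. Slc39a14, a zinc and iron importer, was highest at 0.70 (interval 0.17 to 1.22) from 68 and 60 counts, followed by Trf, which encodes transferrin, at 0.63 (interval 0.35 to 0.91) from 221 and 204 counts. Steap2, a ferrireductase, was lowest at -0.82 (interval -2.26 to 0.36) from 8 and 21 counts. It passed the filter on low counts through the wild-type total alone, so its direction follows from the filter. The mitochondrial iron importer Slc25a28 had the most counts, 280 and 461, and a ratio of -0.20 (interval -0.42 to 0.01). Trf and Slc39a14 were also above 0 with spike-in scaling, without reaching 1.5-fold. Trf was at 0.36 (interval 0.07 to 0.64), and Slc39a14 at 0.42 with an interval that holds 0 (-0.10 to 0.95).

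Systemic control runs from bone morphogenetic proteins through SMAD factors to hepcidin, the hormone that degrades ferroportin. Of 15 compared genes of this group, 1 was past 1.5-fold higher and 1 lower (13.2% and 13.5% of all genes compared), with a median of 0.12. With spike-in scaling none was higher and 4 were lower (7.82% and 23.7% of all genes compared), and the median was -0.16. Smad7, an inhibitor of the pathway, was highest at 0.75 (interval 0.37 to 1.13) from 127 and 108 counts, and Smad6, also an inhibitor, was lowest at -0.69 (interval -1.46 to 0.01) from 24 and 56 counts. The receptor gene Bmpr1a had the most counts, 859 and 1106, with a ratio of 0.15 (interval 0.02 to 0.28). The spike-in value of Bmpr1a was below 0, at -0.12. Fbxl5, whose product marks iron regulatory proteins for destruction when iron is plentiful, was lower at -0.58 (interval -0.87 to -0.31), from 161 and 346 counts. It lay just short of 1.5-fold and was named after its value was seen. The hepcidin genes Hamp and Hamp2 had 0 counts in FLExDUX4 and 2 and 0 in wild-type.

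Of 6 compared chaperones and genes of lysosomal release, Pcbp2, an iron chaperone, had the most counts, 2063 and 2827, and a ratio of 0.06 (interval -0.02 to 0.14). The ferritinophagy adaptor Tax1bp1 was highest at 0.18 (interval 0.07 to 0.29), or -0.09 with spike-in scaling. Pcbp3 was the single one past 1.5-fold, beside 26.8% of all genes compared, at -0.80 (interval -1.73 to 0.02) from 17 and 43 counts. The median of this list was -0.07, and -0.34 with spike-in scaling. There Pcbp3 was again the single one past the fold, beside 31.5% of all genes compared.

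None of 11 compared heme synthesis genes was past 1.5-fold with TMM scaling, beside 26.8% of all genes compared. The median was -0.24, with 7 genes below 0. With spike-in scaling 3 were past 1.5-fold lower (23.7% of all genes compared), and the median was -0.51. Alas1, the rate-limiting enzyme outside red cells, had the most counts, 1124 and 1561, and a ratio of 0.04 (interval -0.07 to 0.15). Its erythroid counterpart Alas2 was highest at 0.45 (interval 0.08 to 0.82), and it is also on the list of red blood cell genes. Cpox was lowest at -0.41 (interval -0.63 to -0.20) from 263 and 501 counts.

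Of 8 compared genes of heme breakdown and transport, 3 were past 1.5-fold higher (13.2% of all genes compared) and none lower (13.5%). The median was 0.21. With spike-in scaling 2 were higher and 1 lower (7.82% and 23.7% of all genes compared), and the median was -0.07. Pgrmc1, a heme-binding membrane protein, was highest at 1.10 (interval 0.50 to 1.72) from 60 and 40 counts, Cd163 had the 0.92 given above, and Hmox1, the inducible heme oxygenase, had 0.73 (interval -0.002 to 1.47) from 36 and 31 counts. Blvrb, a biliverdin reductase, was lowest at -0.53 (interval -0.95 to -0.12). Slc48a1, a heme transporter, had the most counts, 865 and 1264, and a ratio of -0.03 (interval -0.16 to 0.10).

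Of 25 compared genes of iron-sulfur cluster assembly, none was past 1.5-fold higher and 1 lower (13.2% and 13.5% of all genes compared). The median was -0.02. With spike-in scaling none was higher and 4 were lower (7.82% and 23.7% of all genes compared), and the median was -0.30. Nfs1, the cysteine desulfurase that supplies the sulfur, was highest at 0.51 (interval 0.38 to 0.64) from 935 and 941 counts, and 0.23 with spike-in scaling. Nubp1, a scaffold of the cytosolic pathway, was lowest at -0.95 (interval -1.62 to -0.35) from 30 and 84 counts. The chaperone Hspa9 had the most counts, 3908 and 5547, and a ratio of 0.01 (interval -0.05 to 0.07).

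**Figure D4:**
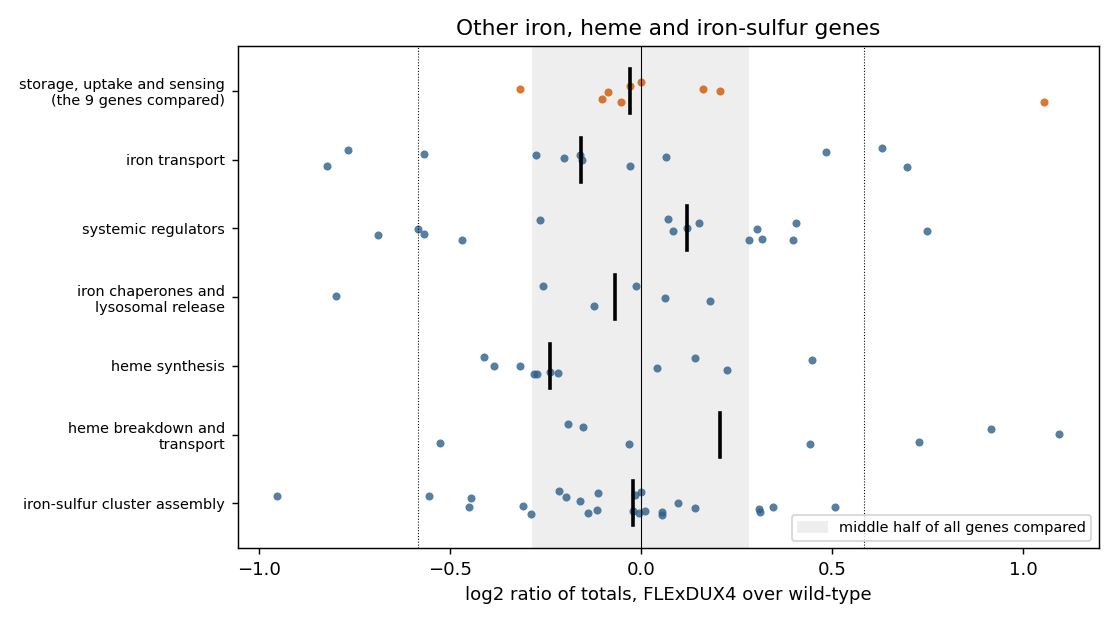
Log2 ratio of FLExDUX4 over wild-type for the compared genes of each list (1 point a gene, spread vertically for legibility, with the 9 genes of storage, uptake and sensing in orange and the other lists in blue), with list medians as black bars, the range between quartiles of all genes compared in grey and dotted lines at 1.5-fold. The medians run from -0.24 for heme synthesis to 0.21 for heme breakdown and transport, and all lie within the grey range.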

How the data were processed

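QuantSeq 3′ FWD libraries came from skeletal muscle of 3 mice per genotype, by the labels. The authors trimmed reads with Cutadapt 1.16 and aligned them with STAR 2.5.3a to GRCm38 joined to spike-in sequences, and the submitters' processing notes also name featureCounts 1.6.2. The deposited counts used here are raw totals per gene and genotype. Another 6 columns, of values per library, have names that match no sample label and were used in no step, so the planned tests across mice were not run. The authors' own comparison (mean, fold change, its error, test statistic and p-values) was not used either.

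Totals were scaled with the TMM method of edgeR 4.0.16 under R 4.3.3, from 13396 genes that pass filterByExpr (minimum count 10). A pseudocount of 0.5 entered each log2 ratio. The 95% intervals are Clopper-Pearson for ratios, exact Poisson for CPM and Woolf for ratios between genes (scipy 1.17.1, Python 3.11.15). A total of 0 was taken to allow 3 counts. Scripts were tested on simulated counts. Alternatives were RLE, upper-quartile, gene-total and spike-in scaling, other pseudocounts and folds, and no filter.

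The genes and lists were chosen with earlier results of these data known. A single gene of the red blood cell list is not reported here and was left out of its sums. Named genes are the members, ferritin rows above 3 counts, and in each wider list of iron genes the gene with the most counts and those with the highest and lowest ratio. The other named genes (Cd163 and other markers, Trf, Fbxl5 and Hmox1 among them), the hairpin search, the ratios between members, the 500-count and 10000-count bands and the 0.25 tolerance were chosen after values were seen. Coordinates are from GENCODE M21 (GRCm38), and gene ends are given for the 8 members whose start there equals the deposited start.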

Additional observations from a re-analysis of the deposited data

How the results depend on the processing

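No paired analysis was possible because only 1 total per genotype was used. Tests with edgeR or DESeq2 and fits without each replicate need values per mouse and were not run. The median ratio of the members was -0.03 and moved to -0.31 with spike-in totals. The number of members past 1.5-fold was 1, and became 2 with spike-in totals (Aco1 joined) and 2 with no filter (Ncoa4 joined). Of the wider lists, 11 genes were past 1.5-fold (14.3%, beside 26.8% of all genes compared). This became 18 with spike-in totals (23.4% beside 31.5%), 19 with no filter (22.6% beside 45.9%), 28 with the threshold at a log2 ratio of 0.32 (36.4% beside 45.5%) and 1 with it at 1 (1.3% beside 13.4%), where both thresholds were chosen after seeing the data. RLE, upper quartile, gene totals and the pseudocounts of 0.1 and 2 kept these 3 values within counting error or within 1.5 times. Of the single ratios of members recomputed under the alternatives, 54 stayed within the counting interval and 9 did not. Fth1 and Slc40a1 changed sign with spike-in totals and under no other alternative. Ftl1, Aco1 and Ncoa4 had the fewest counts, and those of Ftl1 are also uncertain because of shared sequence.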

Other observations

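Genes that share the hairpin letters with the iron genes can be read in the same totals. Of the 31 genes with the letters in an annotated 5′ region, 23 had enough counts to be compared, and without Fth1, Ftl1 and Slc40a1 the other 20 had a median log2 ratio of -0.08, 7 of them above 0. None of these 20 was 1.5-fold or more higher and 2 were lower, beside 13.2% and 13.5% of all genes compared. Of the 129 genes with the letters in a 3′ region, 95 were compared besides Tfrc, with a median of -0.05, 6 at 1.5-fold or more higher and 10 lower. With spike-in scaling these medians were -0.36 and -0.32. Of the 20, none was then 1.5-fold or more higher and 5 were lower, and of the 95, 3 were higher and 22 lower. The shares of all genes compared were 7.82% and 23.7%. A match of letters is no evidence that a hairpin forms or is bound.

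Of 6 adipocyte markers, 5 were above 0 and 2 past 1.5-fold higher in the FLExDUX4 total (13.2% of all genes compared), with a median ratio of 0.30 and summed levels of 384 CPM in FLExDUX4 and 303 CPM in wild-type. Lep went the other way, at -0.82 from 12 and 31 counts. Of 6 endothelial markers, 4 were below 0, 3 with an interval below 0 (20.6% of all genes compared) and 1 past 1.5-fold lower (13.5%), and the median was -0.23. Tie1 and Pecam1 were above 0, at 0.36 and 0.06. The summed level of the endothelial list was 170 CPM in FLExDUX4 and 195 CPM in wild-type, and Kdr alone was at 48.7 CPM and 71.9 CPM. With spike-in scaling the medians were 0.03 and -0.51. Past 1.5-fold were then 1 adipocyte marker higher and 1 lower, and no endothelial marker higher and 3 lower. The shares of all genes compared were 7.82% higher and 23.7% lower. Their part in the ratios of the iron genes was not tested.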
